A study of Mus musculus with 3 samples.

Results

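Capillary-type endothelial cells of mouse vascular tissue were examined in a library from mice given sunitinib plus Yoda1. The rule took cells with at least 500 unique molecular identifiers (UMIs, each standing for 1 captured transcript molecule), at least 300 genes and at most 15% mitochondrial UMIs. It asked for at least 3 of 7 endothelial genes (Pecam1, Cdh5, Egfl7, Kdr, Flt1, Cldn5 and Ptprb), at least 2 UMIs of Cd36 and Gpihbp1 together, and 0 UMIs of the lymphocyte genes Cd79a and Cd3e and of the large-vessel gene Cytl1. The cells were thus chosen by their own UMIs of these genes, whose values describe the choice and support nothing. The rule found 300 cells, which were 9.58% of the 3130 cells kept from that library (exact 95% binomial interval 8.58 to 10.7%) and stood among 11225 kept cells in the 3 libraries. The same rule found 0 cells among 4148 in the sunitinib library, where the exact 95% interval reached 0.0889%, and 1 cell among 3947 in the vehicle library.

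The 3 groups were sunitinib plus Yoda1, sunitinib, and vehicle, with 1 library each and the time given as 3 weeks, a count whose start the labels do not state. Every mouse is labelled WT, and cells were freed by digesting arteries and captured in droplets, so the libraries are not limited to endothelium. Sunitinib is a kinase inhibitor that blocks the VEGF receptors, the PDGF receptors and KIT, and Yoda1 is a chemical opener of the Piezo1 channel, a cation channel that responds to stretch and shear. The sample title of the first group names Yoda1, and the series' design text gives it as the combination. The sources used here do not give strain, age, sex, dose or the number of mice behind a library. With 1 library in each group no difference has a replicate check, no p-value is given, and treatment, animal, dissection, library and processing version cannot be told apart. Intervals and floors cover counting error only.

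Capillary endothelial cells line the smallest vessels, where blood and tissue exchange water, gases and nutrients. In muscle and fat they also take up fatty acids: GPIHBP1 carries lipoprotein lipase to the vessel lumen, the lipase frees fatty acids from circulating triglyceride, CD36 helps them into the cell, and FABP4 and FABP5 bind them inside. Large-artery endothelium instead carries genes of the elastic wall and of leukocyte adhesion, such as Mgp, Eln, Vwf and Vcam1.

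Stretches upstream of the transcription start are shown for Cd36, which helped define the cells, for Car4 and Rgcc, a pair of capillary genes that did not, and for Cytl1, whose UMIs kept cells out. Each is the 250 bases before the RefSeq start (GRCm38.p6), written 5' to 3' on the gene's strand, with capitals marking the GC box GGGCGG or its reverse CCGCCC.
Cd36: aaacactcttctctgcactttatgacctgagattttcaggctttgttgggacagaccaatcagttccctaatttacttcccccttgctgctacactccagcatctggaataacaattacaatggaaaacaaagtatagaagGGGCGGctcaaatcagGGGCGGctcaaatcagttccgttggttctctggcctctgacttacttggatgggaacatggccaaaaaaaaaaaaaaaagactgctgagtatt
Car4: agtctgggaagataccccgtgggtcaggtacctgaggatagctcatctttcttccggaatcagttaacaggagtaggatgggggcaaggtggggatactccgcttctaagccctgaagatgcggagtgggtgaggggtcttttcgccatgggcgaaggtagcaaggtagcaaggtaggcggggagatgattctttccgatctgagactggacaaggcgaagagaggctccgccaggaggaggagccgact
Rgcc: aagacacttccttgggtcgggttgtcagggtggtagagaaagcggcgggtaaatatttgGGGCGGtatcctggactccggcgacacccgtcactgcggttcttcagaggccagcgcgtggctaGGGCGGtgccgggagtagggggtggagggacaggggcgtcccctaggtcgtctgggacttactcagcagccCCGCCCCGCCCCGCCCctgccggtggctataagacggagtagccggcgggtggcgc
Cytl1: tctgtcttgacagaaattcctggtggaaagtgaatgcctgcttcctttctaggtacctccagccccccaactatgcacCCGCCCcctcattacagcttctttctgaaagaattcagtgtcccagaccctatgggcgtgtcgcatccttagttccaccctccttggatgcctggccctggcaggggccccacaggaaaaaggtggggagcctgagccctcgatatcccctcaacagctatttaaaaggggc
They lie at chr5:17835897-17836146 on the minus strand for Cd36, chr11:84957504-84957753 on the plus strand for Car4, chr14:79301636-79301885 on the minus strand for Rgcc and chr5:37735269-37735518 on the plus strand for Cytl1. The Cd36 window lies inside the gene as GENCODE gives it (chr5:17781690-17888801), so it precedes an internal start and not the outermost one. The GC box occurred 2 times for Cd36, 0 times for Car4, 5 times in part overlapping for Rgcc and 1 time for Cytl1, and in 32.7% of 32851 windows of the same length. The half-site AGGTCA, or its reverse TGACCT, occurred 1 time in the Cd36 window and in none of the other windows printed, against 14% of all windows. By these letters the capillary genes did not form a group apart from Cytl1.

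The 300 cells held 1681103 UMIs, with a lowest of 512, a median of 3958.5 and a highest of 38837 per cell, and their median mitochondrial share was 5.46%. All 7 endothelial genes were detected in 172 of them and exactly 3 in 11. By construction they carried Cd36 (6154 UMIs, median 14 per cell, highest 212) and Gpihbp1 (2341 UMIs, median 5, highest 75). Both genes were detected in 266 cells, Cd36 without Gpihbp1 in 26 and Gpihbp1 without Cd36 in 8. Among endothelial-gated cells without Cytl1, just inside the threshold 11 cells had 2 UMIs of the pair and 5 had 3, and just outside it 9 cells had 1. Just outside the other limits, 10 cells that met the rest of the rule had 2 of the 7 endothelial genes, 33 cells had 15 to 20% mitochondrial UMIs, 12 cells were kept out by Cytl1 and 14 by Cd79a or Cd3e.

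**Figure D1:**
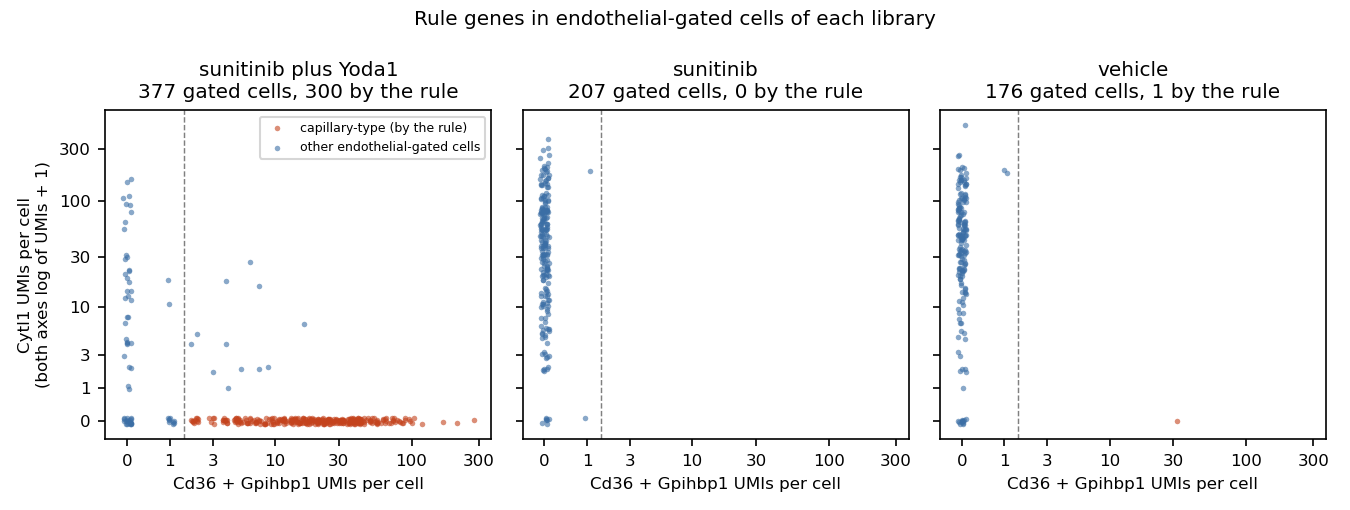
UMIs of Cd36 plus Gpihbp1 (x axis) against UMIs of Cytl1 (y axis) in each endothelial-gated cell, both on a log scale of UMIs plus 1 with small random offsets, for sunitinib plus Yoda1 (377 cells), sunitinib (207 cells) and vehicle (176 cells). The dashed line marks the threshold of 2 UMIs, and 300, 0 and 1 cells met the rule.

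Endothelial cells of the 3 libraries differed in which of these genes they carried. The endothelial gate took 377 cells with sunitinib plus Yoda1, 207 with sunitinib and 176 with vehicle, and Cytl1 was detected in 13.0%, 96.1% and 92.6% of them, in the same order. Over all kept cells, Gpihbp1 had 2481 UMIs with sunitinib plus Yoda1, 0 with sunitinib and 20 with vehicle, and those 20 lay in 1 cell. That cell, which was the 1 vehicle cell found by the rule, also held 13 UMIs of Cd36, 86 of Fabp4, 32 of Ly6c1, 20 of Rgcc and 12 of Flt1, with 0 of Kdr and Car4, among 8139 UMIs. The plot of rule genes by library shows these cells along opposite axes: 12 cells, all with sunitinib plus Yoda1, held Cytl1 together with at least 2 UMIs of the capillary pair. The sunitinib plus Yoda1 library also stood apart in depth (28364203 UMIs, against 66769480 with sunitinib and 73901343 with vehicle), in its lymphocytes (659 cells with UMIs of Cd79a or Cd3e and none of the 7 endothelial genes, against 4 and 2) and in being processed with another Cell Ranger version (7.1.0, against 6.0.0). It shared 8 cell barcodes with the sunitinib library and 3 with the vehicle library, none of them a capillary-type cell.

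Genes outside the rule were read against the 54 other endothelial cells of the same library, those passing the endothelial gate with 0 UMIs of Cd36 and Gpihbp1 (410150 UMIs, median 7205 per cell). Levels are in CPM (a gene's UMIs summed over the cells and scaled to a common total), ratios are log2 of capillary-type over other endothelium with an exact 95% interval, and 9032 genes with at least 20 UMIs over both were measured. Because Cd36 and Gpihbp1 split the cells, and Cytl1 was barred from the capillary-type cells alone, these ratios describe the split and test nothing. Low ratios of genes carried together with Cytl1 are thus partly built in. At least 2-fold higher in capillary-type cells were 1192 genes, which is 13.2% of those measured, and at least 2-fold lower were 839, which is 9.29%. The list counts below are to be read beside these shares. The median log2 ratio of all measured genes was 0.06. The 54 cells are mixed: 35 carried Cytl1, 19 did not, 6 held at least 10 lymphatic UMIs, 11 held at least 10 fibroblast UMIs and 3 held Glycam1, a gene of high endothelial venules. Levels in the other endothelium of the sunitinib library (205 cells) and the vehicle library (173 cells) are given beside them without a ratio.

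Of the 5 capillary markers, Ly6c1 was the 1 that the rule did not use. It had 1956 UMIs in capillary-type cells (1164 CPM) and 257 in the other endothelium of that library (627 CPM), against 219 CPM with sunitinib and 301 CPM with vehicle. The log2 ratio was 0.89 (0.70 to 1.09), below the 2-fold mark, and 0.51 when the comparison was limited to other endothelium with Cytl1. Ly6c1 was detected in 84.3% of capillary-type cells and 68.5% of other endothelium, and in 3.64% of lymphocytes at a median depth of 5270 UMIs. Ly6c2, a near-identical neighbour, was listed with 1 UMI in capillary-type cells, and the sources used here do not say how reads shared by the pair were counted. Ly6a and Ly6e, relatives on endothelium, had ratios of -0.03 (-0.20 to 0.13) and 0.37 (0.20 to 0.55).

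Other capillary genes were mostly higher, in a split made by Cd36 and Gpihbp1 and on a list chosen with earlier results known. All 24 on the list were measured, 17 were at least 2-fold higher, 1 was at least 2-fold lower, and the median log2 ratio was 2.52, with Car4 at its lower bound. Car4, a carbonic anhydrase on the luminal face of capillaries (chr11:84957786-84966044, plus strand), had 486 UMIs in capillary-type cells, 289 CPM, and 0 UMIs in the other endothelium of the 3 libraries. Against a floor of 3 counts over the group it was at least 5.30 higher on the log2 scale, and it was detected in 52.3% of capillary-type cells. Over all kept cells of the sunitinib and vehicle libraries Car4 and Btnl9, a butyrophilin-like gene of capillary endothelium, were at 0 UMIs. Btnl9 (chr11:49165585-49187159, minus strand) had 661 UMIs in capillary-type cells and 5 in other endothelium, a log2 ratio of 5.01 (3.78 to 6.64). Rgcc, a cell cycle regulator used as a capillary marker, had 892 and 29.3 CPM, against 11 with sunitinib and 20.3 with vehicle, and Cd300lg, which encodes the lymphocyte-binding receptor nepmucin, had 703 and 39.0 CPM with 0 in both other libraries. The exception was Ehd4, a membrane-trafficking ATPase, with 137 CPM in capillary-type cells and 766 CPM in other endothelium. Plvap, which forms the diaphragms of fenestrae, was detected in 17.7% of capillary-type cells and had a ratio of 0.58 (0.18 to 0.99), and Gpr182 had one of -0.48 (-1.30 to 0.41).

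The 12 highest ratios went to Ablim3, Lnx1, Aqp7, Ccdc85a, Rsad2, Rbp7, Depp1, Car4, Xdh, Tcf15, Fabp4 and Btnl9. Ablim3, an actin-binding LIM protein gene, had 863 UMIs in capillary-type cells and 2 in other endothelium, a ratio of 6.72 (4.86 to 9.77), with 0 in the other endothelium of both other libraries. Aqp7, a channel for water and glycerol (chr4:41033074-41048139, minus strand), had 379 and 1 UMIs, a ratio of 6.53 (4.04 to 11.84), and Rbp7, a retinol-binding protein of the FABP family, had 766 and 4 UMIs, a ratio of 5.55 (4.18 to 7.43). Of the library's UMIs of these 12 genes, capillary-type cells held between 81.3% and 94.7% for all but Rsad2 (37.4%) and Xdh (38.2%), which encodes xanthine dehydrogenase. In that library Rsad2 and Xdh were also carried by cells outside the endothelium. With sunitinib and vehicle the endothelial gate took 207 and 176 cells. Over all kept cells there, Fabp4 was found in 3076 and 3072 cells, Lnx1 in 684 and 466, and Ccdc85a in 199 and 285. The rest of the 12 genes were found in at most 12 and 19 cells. Lnx1 (423 and 1 UMIs) overlaps Fip1l1 and Depp1 (490 and 3 UMIs) overlaps Rassf4 on the opposite strand, and the sources used here do not say whether counting used strand. Where the other endothelium was limited to the 35 cells with Cytl1, the UMIs of Ablim3, Lnx1, Aqp7, Ccdc85a, Depp1, Xdh and Btnl9 in it were 0.

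**Figure D2:**
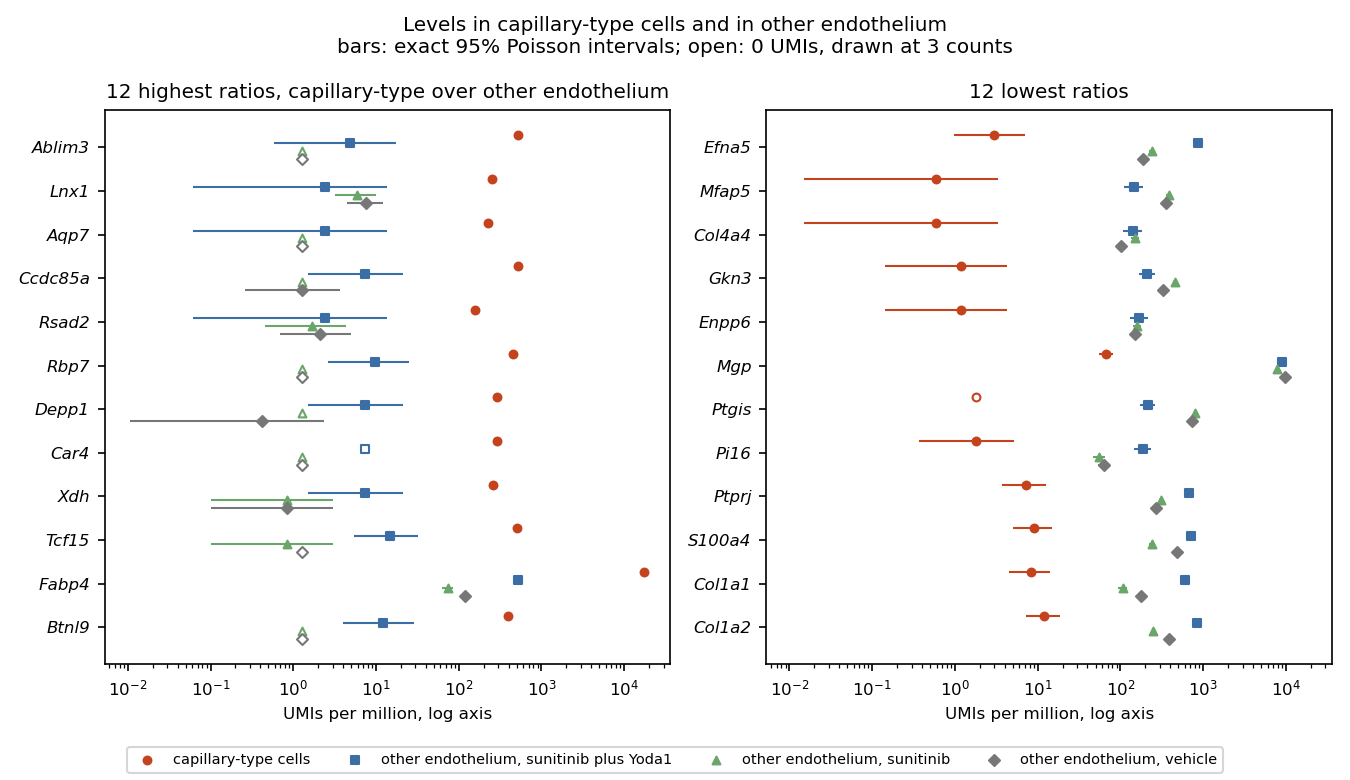
Level in CPM (x axis, log scale) of 12 genes at the top and 12 at the bottom of the ranking by ratio, in capillary-type cells and in the other endothelium of the sunitinib plus Yoda1, sunitinib and vehicle libraries, with exact 95% Poisson intervals; open symbols are genes at 0 UMIs drawn at 3 counts. For each of the 24 genes the 3 sets of other endothelium lie on the same side of the capillary-type cells, as for Fabp4 with 17437 CPM against 527, 74.0 and 118 CPM.

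Genes of fatty acid uptake and triglyceride handling also stood higher: of 24, 20 were measured, 11 were at least 2-fold higher and 2 at least 2-fold lower, with a median of 1.52. Fabp4, the intracellular fatty acid carrier (chr3:10204088-10208576, minus strand), had 29313 UMIs in capillary-type cells, with a lowest of 0, a median of 62.5 and a highest of 1602 per cell. It had 17437 CPM there and 527 CPM in the other endothelium, against 74.0 with sunitinib and 118 with vehicle, a log2 ratio of 5.05 (4.86 to 5.25). Of the 216 Fabp4 UMIs in other endothelium, 178 lay in the 19 cells without Cytl1, and against the 35 cells with Cytl1 the ratio was 7.02. A Fabp4 UMI was found in 97.7% of capillary-type cells, against 7.89% of lymphocytes, which should lack it; thinned to 2000 UMIs a cell, with 53 of 300 capillary-type cells too shallow and left out, the shares were 95.1% and 3.05%.

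The same group held the regulators and partners of that uptake. Fabp5 had 722 CPM in capillary-type cells and 36.6 CPM in other endothelium (ratio 4.30, 3.57 to 5.14), and Lpl, the lipase itself, had 451 and 51.2 CPM, with 2.54 CPM with sunitinib and 2.54 CPM with vehicle. Pparg, the nuclear receptor that drives lipid storage genes, had 474 and 36.6 CPM, against 0.845 and 1.69 CPM in the sunitinib and vehicle libraries. Angptl4, a secreted inhibitor of the lipase, had 172 and 12.2 CPM (3.82, 2.58 to 5.45). The lipases that release stored fat also stood higher, Lipe at 3.99 (2.42 to 6.28) and Mgll at 3.44 (3.09 to 3.81), as did the lipoprotein receptor Scarb1 at 3.17 (2.43 to 4.02). The fatty acid transport proteins were sparse, with 3 UMIs of Slc27a1, 19 of Slc27a3 and 6 of Slc27a4 in 300 cells. Vegfb, a VEGF family ligand, was among those at least 2-fold lower, at -1.16 (-2.24 to -0.01). Oxidation was less set apart: of 11 measured genes 2 were at least 2-fold higher, Ucp2 at 1.65 (0.87 to 2.55) and Acaa2 at 1.43 (0.64 to 2.34), and the median was 0.36.

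Transport genes were divided. Of 15 measured, 7 were at least 2-fold higher and 5 at least 2-fold lower, with a median of 0.16. The water channel Aqp1 had 1613 CPM in capillary-type cells and 163 CPM in other endothelium, a ratio of 3.30 (2.95 to 3.68), though it was detected in 66.3% of capillary-type cells and its highest cell held 202 of 2712 UMIs. The taurine transporter Slc6a6 had 411 and 70.7 CPM. The glucose transporter Slc2a1 was lower against other endothelium as a whole (25 and 78.0 CPM, ratio -1.64) but higher, at 1.24, against other endothelium with Cytl1. Of 13 genes of brain capillaries 7 were measured, 1 was at least 2-fold higher (Lef1, 1.36, -0.68 to 4.49, but -2.46 with 2 of the 7 endothelial genes required), 1 at least 2-fold lower (Slc2a1), and the median was 0.01. The efflux pump gene Abcb1a was found in 35.3% of capillary-type cells (0.16, -0.29 to 0.64), while the barrier genes Slco1a4, Slco1c1 and Mfsd2a had 1, 0 and 3 UMIs. Of 11 genes of liver sinusoids 4 were measured, 2 were at least 2-fold higher, 0 at least 2-fold lower, and the median was 0.56. The higher ones were the scavenger receptor gene Stab2, with 85 and 0 UMIs (at least 2.79) in 1% of capillary-type cells, and the factor gene Maf at 1.23 (0.50 to 2.04) but -0.50 in thinned cells, found in 4.33%; Fcgr2b, Oit3 and Dnase1l3 had 0 UMIs. From the list drawn from lung capillaries, 6 of 8 measured genes were at least 2-fold higher and 0 at least 2-fold lower (median 1.77), among them Car4, Ednrb and Kitl, while its transcription factor genes Foxf1 and Tbx2 held 1 and 3 UMIs. Of 10 measured genes of caveolae, fenestrae and transcytosis, 0 were at least 2-fold higher and 2 at least 2-fold lower, Ehd4 at -2.48 (-2.73 to -2.23) and Pacsin2 at -1.05 (-1.52 to -0.57). Cav1, the main caveolar protein gene, was at 0.35 (0.20 to 0.51).

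Large-vessel genes were the lowest endothelial group. Of 17 measured, 15 were at least 2-fold lower and 0 at least 2-fold higher, and the median log2 ratio was -3.91. Mgp, an inhibitor of vascular calcification (chr6:136872435-136875823, minus strand), had 113 UMIs in capillary-type cells and 3691 in other endothelium, 67.2 and 8999 CPM, with 7870 CPM with sunitinib and 9674 CPM with vehicle, a ratio of -7.06 (-7.35 to -6.79). With the Cytl1 limit dropped from the rule, the Mgp ratio was -5.01. Just outside the Cd36 and Gpihbp1 threshold, the 9 cells with 1 UMI of the pair and no Cytl1 held 0 UMIs of Mgp and 123 of Fabp4. These cells too were taken without Cytl1. In other endothelium Mgp had 12746 CPM in cells with Cytl1 and 661 CPM in cells without, so this 0 is partly built in. Eln, the elastin gene, had 72.0 and 1448 CPM, Vwf, the platelet-binding factor, had 51.8 and 778 CPM, and Bmp4 had 8.33 and 336 CPM. Crip1 stood just short of 2-fold lower (interval -1.15 to -0.85), and Alpl, an alkaline phosphatase, was the 1 with a ratio above 0, 0.85 (-0.22 to 2.12).

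The 12 lowest ratios went to Efna5, Mfap5, Col4a4, Gkn3, Enpp6, Mgp, Ptgis, Pi16, Ptprj, S100a4, Col1a1 and Col1a2. Efna5, a guidance ligand, had 5 and 355 UMIs, a ratio of -8.18 (-9.82 to -6.95), and Gkn3, a marker of arterial endothelium, had 2 and 87 UMIs, all 87 in cells with Cytl1. With the Cytl1 limit dropped from the rule, Efna5 was at -6.28 and Enpp6 at -3.85 (-7.14 as reported). Mfap5 and Col4a4 were then at -8.04 and -7.99, within their intervals. Ptgis, which encodes prostacyclin synthase, had 0 and 88 UMIs, so capillary-type cells were at least 6.91 lower on the log2 scale against a floor of 3 counts over the group, and it had 792 CPM with sunitinib and 734 CPM with vehicle. Col1a1 and Col1a2 are fibroblast collagens: 241 of the 246 UMIs of Col1a1 and 342 of the 348 of Col1a2 in other endothelium lay in the 19 cells without Cytl1, of which 3 held at least 10 fibroblast UMIs. Against other endothelium with Cytl1 the ratio of Col1a2 was -0.83, so the place of these collagens in the ranking rests on those 19 cells.

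**Figure D3:**
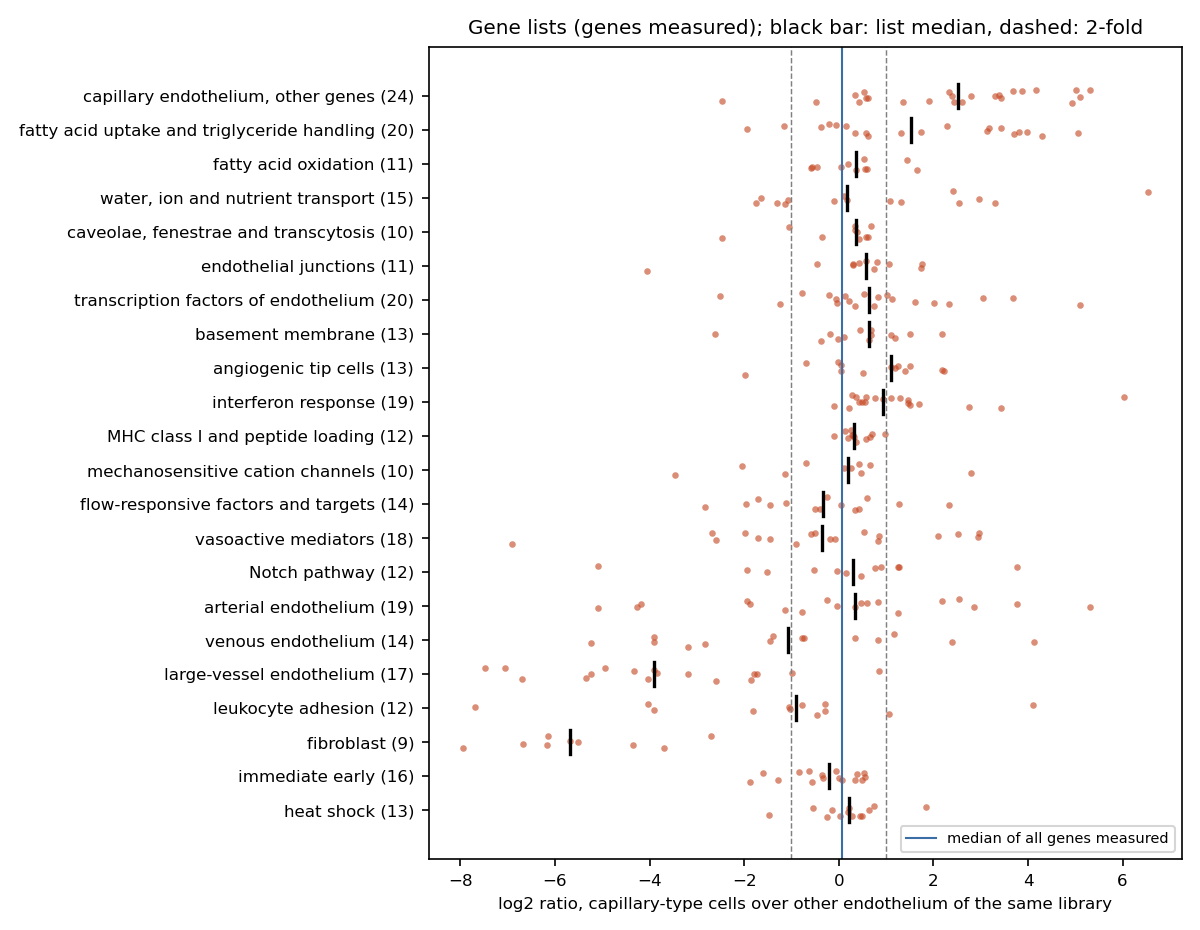
Log2 ratio of capillary-type cells over other endothelium of the same library (x axis) for each measured gene of 22 lists, 1 point per gene, with list medians as black bars, the 2-fold marks dashed and the median of all measured genes in blue. Capillary genes (median 2.52) and fatty acid genes (1.52) lie to the right, large-vessel (-3.91) and fibroblast genes (-5.68) to the left.

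Arterial genes were evenly divided, while venous genes were more often lower than higher, to be read beside 13.2% higher and 9.29% lower of all measured genes. Of 19 measured arterial genes 6 were at least 2-fold higher and 6 at least 2-fold lower (median 0.34), and of 14 venous genes 3 and 7 (median -1.08). Among arterial genes the gap junction gene Gja5 had 10.7 CPM in capillary-type cells and 207 CPM in other endothelium, and the kinase gene Bmx had 18.4 and 336 CPM. Efnb2, the arterial ephrin, had 186 and 122 CPM and Sox17 had 105 and 82.9 CPM, differences under 2-fold. Nrp1, the VEGF and semaphorin co-receptor, had 889 and 195 CPM. Among venous genes Nr2f2, the factor that sets venous fate, had 165 and 92.6 CPM, against 6.34 and 19.5 CPM in the sunitinib and vehicle libraries, and Nrp2 had 319 and 61.0 CPM, against 0.423 and 1.27 CPM. The apelin receptor gene Aplnr, found on venous and capillary endothelium, had 216 UMIs in capillary-type cells and 0 in the other endothelium of the 3 libraries, at least 4.13 higher on the log2 scale. Ackr1, which marks postcapillary venules, had 2 UMIs in 300 cells, and Selp, which encodes P-selectin, had 8.92 and 134 CPM.

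Among sunitinib's targets, the VEGF receptor genes Kdr and Flt1 helped define the cells and are given as levels alone. Kdr had 983 CPM in capillary-type cells and 70.7 CPM in other endothelium, against 3.38 with sunitinib and 5.08 with vehicle, and Flt1 had 1899 and 466 CPM, against 34.7 and 56.8. Flt4, the third receptor, had 144 and 63.4 CPM (ratio 1.18, 0.60 to 1.83), and 142 of its 242 UMIs lay in the 9 capillary-type cells with at least 10 lymphatic UMIs. The Flt4 ratio was 0.91 to 2.18 over 20 alternatives, among them leaving out cells with at least 10 lymphatic UMIs from both groups. Kit had 47 and 8 UMIs (0.52, -0.58 to 1.81), Pdgfrb had 28 and 20 UMIs, Pdgfra 3 and 9, Ret 5 and 5, Flt3 0 and 1, and Csf1r was at 0 in both. Pdgfrb was lower (-1.55, -2.43 to -0.64) but came out at 0.20 when 4 of the 7 endothelial genes were required. Kitl, the ligand of KIT, had 753 and 151 CPM, against 40.2 with sunitinib and 58.5 with vehicle. The ligand gene Vegfa had 7.73 and 46.3 CPM. Tek and Tie1, the angiopoietin receptors, had ratios of -0.46 (-0.72 to -0.20) and 0.34 (-0.00 to 0.70).

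Piezo1, the channel that Yoda1 opens, had 239 UMIs in capillary-type cells and 42 in other endothelium, 142 and 102 CPM, against 46.1 CPM with sunitinib and 45.3 CPM with vehicle. The ratio of 0.47 had an interval (-0.00 to 0.98) that reached 0, and the alternatives gave -0.30 to 0.74. A Piezo1 UMI was found in 43.0% of capillary-type cells, 40.7% of other endothelium, 35.1% of other endothelium with sunitinib and 38.7% with vehicle; thinned to 2000 UMIs the shares were 26.3%, 11.1%, 12.2% and 10.4%, with 4.33% of lymphocytes. Piezo1 lies on chr8:122481698-122551329, minus strand, and overlaps Ctu2 on the other strand. Piezo2 had 114 and 4 UMIs but was found in 5.33% of capillary-type cells, and Trpv4, another shear-responsive channel, had 10 and 27 UMIs. Over the 10 measured channel genes 1 was at least 2-fold higher and 3 at least 2-fold lower, with a median of 0.19. Among all measured genes the shares were 13.2% and 9.29%.

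Of 14 flow-responsive factors and targets, 2 were at least 2-fold higher and 5 at least 2-fold lower, beside 13.2% and 9.29% of all measured genes. Klf2, a factor induced by laminar flow, had 1137 CPM in capillary-type cells and 895 CPM in other endothelium, against 1416 with sunitinib and 1860 with vehicle, and Klf4 had 572 and 427 CPM, against 617 and 865. Nos3, which makes nitric oxide, had 108 and 356 CPM, a ratio of -1.72 (-2.04 to -1.39). Edn1, the endothelin gene, had 50 and 302 CPM, against 1059 with sunitinib and 495 with vehicle, and Ace, the angiotensin-converting enzyme gene, had 28.0 and 178 CPM, against 581 and 444. Ednrb, the receptor that clears endothelin, ran the other way, with 304 UMIs in capillary-type cells (181 CPM) and 13 in other endothelium (31.7 CPM), and 0 and 1 UMIs in the other libraries' other endothelium. Npr3, which clears natriuretic peptides, had 94 and 3 UMIs, and Adora2a, an adenosine receptor gene, had 96 and 0, at least 2.96 higher on the log2 scale. In all, 4 of 18 measured vasoactive genes were at least 2-fold higher and 6 at least 2-fold lower, beside the same shares of all measured genes.

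Of 20 transcription factor genes of endothelium, all measured, 8 were at least 2-fold higher and 2 at least 2-fold lower, with a median of 0.64. Tcf15, which with Meox2 forms a pair known from heart endothelium of mice to drive fatty acid uptake, had 840 UMIs in capillary-type cells and 6 in other endothelium, 500 and 14.6 CPM, against 0.845 with sunitinib and 0 with vehicle. Meox2 had 318 and 6 UMIs, with 0 in the other endothelium of both other libraries, and Meox1 had 103 and 5. The Ets factors Fli1 and Ets2 stood at 2.01 (1.68 to 2.36) and 3.05 (2.36 to 3.84), while Erg, their pan-endothelial relative, was at 0.22 (-0.18 to 0.63). The 2 lower were Lmo2, at -2.50 (-2.83 to -2.18), and Foxp1, at -1.25 (-1.44 to -1.06).

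Notch genes split evenly, with 3 of 12 at least 2-fold higher and 3 at least 2-fold lower, beside 13.2% and 9.29% of all measured genes. The ligand gene Dll4 had 87.4 and 36.6 CPM and Jag1 had 35.1 and 134 CPM. Among the targets Hey1 had 56 and 1 UMIs and Hey2 had 3 and 25. Of the BMP and TGF-beta genes, 2 of 17 were at least 2-fold higher and 4 at least 2-fold lower, beside 13.2% and 9.29% of all measured genes. The receptor gene Eng stood at 0.99 (0.72 to 1.26), the target Id1 at 0.73 (0.50 to 0.97), and the inhibitor Smad6 at -1.64 (-2.14 to -1.14). Tip-cell genes had a median of 1.10 with 7 of 13 at least 2-fold higher and 1 at least 2-fold lower. The highest ratios were those of Pdgfb, the pericyte-recruiting ligand, with 320 and 68.3 CPM (2.23), and of Nid2, a basement membrane gene, with 37 and 2 UMIs (2.17). The collagen genes Col4a1 (1365 and 602 CPM) and Col4a2 (900 and 317 CPM) were also at least 2-fold higher. The defining tip-cell gene Esm1 had 12 UMIs in 1.33% of the cells, Apln lay in 5.67% and Adm was lower at -1.99 but higher, at 1.80, against other endothelium with Cytl1. Of 15 cell cycle genes 4 were measured, 2 were at least 2-fold higher and 0 at least 2-fold lower, with a median of 0.89. The list summed to 143 CPM in capillary-type cells and 90.2 CPM in other endothelium. The higher ones were Tyms at 1.13 and Stmn1 at 1.10, the latter -0.53 as a mean over cells. Mki67 had 1 UMI and Cdk1 and Ccnb1 had 0 in 300 cells.

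Most basement membrane and junction genes lay within 2-fold, 8 of 13 and 7 of 11. At least 2-fold higher were 4 and 3 of them, beside 13.2% of all measured genes, and 1 of each list was at least 2-fold lower. The lower ones were Col18a1, at -2.62 (-3.11 to -2.14), and Cgnl1, which encodes paracingulin, at -4.05 (-4.51 to -3.61). Jup and Jam3, a catenin and an adhesion molecule of junctions, stood at 1.75 (1.22 to 2.34) and 1.74 (0.89 to 2.72). Of 12 measured leukocyte adhesion genes 6 were at least 2-fold lower and 2 at least 2-fold higher. Vcam1 had 31.5 and 517 CPM, against 551 with sunitinib and 664 with vehicle, and Icam1 had 44.6 and 92.6 CPM. Glycam1 had 0 and 150 UMIs, and 147 of those 150 lay in 2 of the other cells without Cytl1. The chemokine gene Cxcl9 went the other way with 213 and 3 UMIs, found in 30% of capillary-type cells and at 0 in the other endothelium of the other libraries.

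Of 19 measured interferon-induced genes 9 were at least 2-fold higher, 0 at least 2-fold lower, and the median was 0.94. Rsad2, which encodes the antiviral enzyme viperin, had 267 UMIs in capillary-type cells and 1 in other endothelium (6.03, 3.54 to 11.33), and was found in 31.7% of capillary-type cells with a highest of 19 in 1 cell. Ifit1 stood at 2.75 (0.82 to 5.83), Irf7 at 1.69 (0.39 to 3.36) and Iigp1 at 1.46 (0.91 to 2.06), on 2, 5 and 29 UMIs in other endothelium. Ifit3 and Gbp2 did not share this, at -0.10 (-1.43 to 1.49) and 0.21 (-0.45 to 0.93). All 12 class I and peptide-loading genes lay within 2-fold, with B2m at 0.58 (0.41 to 0.77). Class II genes were sparse, 146 UMIs in all with 63 in 1 cell, and Cd74 was lower (34.5 and 173 CPM, -2.33) as a whole but 0.48 higher against other endothelium with Cytl1, and 64 of the 71 UMIs in other endothelium lay in cells without Cytl1.

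Stress genes lay mostly within 2-fold. Of 16 immediate early genes 0 were at least 2-fold higher and 3 at least 2-fold lower (Fosb, Ier3 and Myc), and of 13 heat shock genes Hspb1 was higher at 1.85 (1.55 to 2.17) and Cryab lower at -1.48 (-2.43 to -0.50). Fos, a gene known to respond to tissue digestion, had 353 CPM in capillary-type cells and 629 CPM in other endothelium, against 3721 with sunitinib and 5017 with vehicle. Of 14 glycolysis and hypoxia genes 0 were at least 2-fold higher and 5 at least 2-fold lower. Hox genes, which record position along the body, were held at 297 and 361 CPM for groups 1 to 8 and at 29.1 and 95.1 CPM for groups 9 to 11; Hoxa9 had 7 and 15 UMIs and Hoxa10 had 0 and 4.

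Markers of other cell types were counted in full. Of the 10 fibroblast genes capillary-type cells held 198 UMIs (118 CPM), against 1617 (3942 CPM) in other endothelium, and 3 capillary-type cells held at least 10. Pericyte genes summed to 466 and 215 CPM, with at least 10 UMIs in 16 capillary-type cells; Rgs5 led them with 300 and 41.4 CPM, and Kcnj8 had 28 and 4 UMIs. Smooth muscle genes summed to 465 and 1634 CPM, with at least 10 UMIs in 10 capillary-type cells, and Acta2 (83.9 and 424 CPM, -2.34) and Tagln (83.9 and 905 CPM, -3.43) were lower as reported but higher, at 1.15 and 0.28, with the highest doublet scores left out. Adipocyte genes summed to 277 and 0 UMIs, of which 126 were Car3, 58 Cfd and 52 Ucp1, while Adipoq had 2, Plin1 3 and Lep 0. Cardiomyocyte genes summed to 89 and 4 UMIs with 58 in 1 cell, and Myl2 and Myl3 were at 0. Skeletal muscle genes held 29 and 2 UMIs, epithelial genes 10 and 5, Schwann cell genes 20 and 5, and mesothelial genes 0 and 2. Macrophage genes held 96 and 28 UMIs with Csf1r at 0, T and NK cell genes 27 and 7 with Cd4, Nkg7 and Gzma at 0, B cell genes 109 and 58, and platelet genes 236 and 44 with 155 in 1 cell. The part of these transcripts in the ratios above was not tested, beyond the values given with lymphatic, haemoglobin and fibroblast cells left out.

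Within the 300 cells, 2 small sets stood apart. At least 10 UMIs of the 10 lymphatic genes were held by 9 cells, which carried 2478 of 2616 lymphatic UMIs, or 94.7%. In these 9 cells Prox1, the factor that sets lymphatic fate, had 159 UMIs, Mmrn1 418, the chemokine gene Ccl21a 700, the hyaluronan receptor gene Lyve1 507 and Reln 234; the other 291 cells held 3, 4, 4, 0 and 0. Conversely the 9 cells held 16 UMIs of Cd36 and 21 of Gpihbp1 in all, 0 of Car4, Rgcc and Ly6c1, and Fabp4 at 307 CPM, against 18876 CPM in the other 291. By these genes the 9 cells go against the capillary label, and they met the rule by a median of 2 UMIs of each capillary gene. Without cells of this kind in either group the median ratio was 2.83 for capillary genes and -4.61 for large-vessel genes, and Lyve1, 1.07 as reported, was -4.89.

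More than 5% haemoglobin UMIs were held by 9 other cells, with a lowest of 8.45%, a median of 58.7% and a highest of 83.9%. They carried 98.4% of the haemoglobin UMIs, which made up 4.25% of all UMIs of capillary-type cells, and 0.0726% without them. In these cells Cd36, which the rule used, was at 3005 CPM, against 3726 CPM in the other 291. Fabp4, which the rule did not use, was at 17509 CPM, against 17430 CPM. A single cell held 1602 of the 2657 Fabp4 UMIs of the set, and the median was 101 per cell, against 62 in the other 291. Haemoglobin made up 46.3% of the UMIs of the set and counts in its CPM total, so these levels are not directly alike. The median depth of the set was 16066 UMIs. Of these cells 4 were among the 78 with the highest doublet scores. The haemoglobin genes Hbb-bs and Hba-a1 were higher in capillary-type cells, at 4.55 and 4.75, but Hba-a1 was -0.63 without such cells; Hba-a1 and Hba-a2 are near-identical copies between which reads may be split. Hbb-bs was found in 75% of capillary-type cells, 79.6% of other endothelium and 68.7% of lymphocytes, a like share across types.

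**Figure D4:**
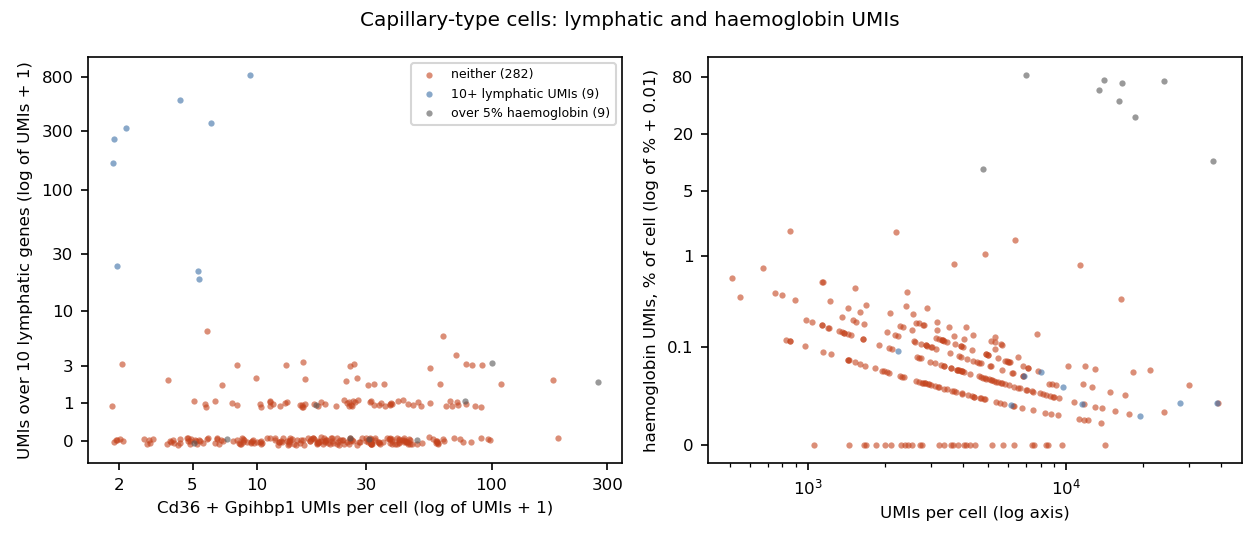
The 300 capillary-type cells, 1 point each: left, UMIs over 10 lymphatic genes (y axis) against UMIs of Cd36 plus Gpihbp1 (x axis), both as log of UMIs plus 1; right, haemoglobin share of each cell in percent (y axis, log) against its UMIs (x axis, log). The 9 cells with at least 10 lymphatic UMIs sit at low Cd36 and Gpihbp1, and the 9 cells with over 5% haemoglobin include some of the deepest cells.

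The variation among cells followed these sets first. In 247 cells thinned to 2000 UMIs, with 53 shallower cells left out, 1749 genes were ranked by variance over mean, whose median was 1.19. The 10 highest were Hbb-bs, Hba-a1, Hba-a2, Hbb-bt, Gm42418, Igfbp5, Fabp4, Ccl21a, Malat1 and Lyve1. For each of the 4 haemoglobin genes 3 cells held at least 50% of the UMIs, for Igfbp5 a single cell held 301 of 534, and for Ccl21a and Lyve1 the 9 highest cells held 100% of the UMIs. Fabp4 differed in kind: its variance was 19.1 times its mean with a UMI in 96.4% of thinned cells, and 52 cells were needed to reach 50% of its UMIs. Its UMIs were thus spread over most cells, not held by a few. Gm42418, which overlaps AY036118 on the opposite strand, and Malat1, a nuclear long non-coding transcript, were likewise spread over many cells.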

How the data were processed

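Single-cell RNA-seq of mouse vascular tissue was read from 3 droplet libraries, 1 per group. The deposited values are whole-number UMI counts for every gene in every barcode. Per the submitters' processing notes and the file headers, the authors made these counts with Cell Ranger 7.1.0 (sunitinib plus Yoda1) and 6.0.0 (sunitinib, vehicle) on mm10. The sources used here do not give the intron and strand settings, and a difference in them would shift counts between libraries.

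Cells were kept and chosen by the rule in the report. The rule, the members and the 51 gene lists (590 symbols, 589 in the matrix, 404 measured) were chosen with earlier results of these data known. UMIs were summed over cells, expressed as CPM and compared as log2 ratios with exact 95% conditional binomial intervals; a sum of 0 was set to a floor of 3 counts over the group, and genes with under 20 UMIs over both sums were not measured. The text names the 5 given markers, the 12 highest and 12 lowest ratios among genes with at least 50 UMIs over both groups and detection in 10% or more of either group (without rule, mitochondrial, ribosomal, haemoglobin and immunoglobulin genes), the ends of each list, Piezo1, sunitinib's target kinases, the 10 most variable genes and defining markers of other cell types. Some further list genes were named after their values were seen. No test across libraries was possible, since each group is 1 library. Fewer than 20 cells met the rule with sunitinib or vehicle, so no ratio against such cells was given either. Scrublet marked 11 of 3130 cells (0.351%), too few for the caller to have worked, so doublets were not removed. The estimated share of free RNA was 0.868% in capillary-type cells and 0.821% in other endothelium. It was estimated from lymphocyte transcripts against the summed profile of all barcodes, not of empty droplets. Both groups had already been chosen for 0 UMIs of Cd79a and Cd3e, so the choice itself could lower it. Coordinates are from GENCODE (GRCm38) and promoters from RefSeq. Python 3.11.15, numpy 2.4.6, scipy 1.17.1, scanpy 1.11.5, R 4.3.3 and edgeR 4.0.16 (scaling alternative) were used, and the scripts were tested on simulated data.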

Additional observations from a re-analysis of the deposited data

How the results depend on the processing

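Across 20 alternatives, 3 of them chosen after seeing the data, 5741 values were recomputed. Of these, 5120 stayed within the counting interval (counts within 1.5 times), 589 moved outside it and 32 reversed, and the cause was not tested. The 5120 do not all measure stability. A minimum of 50 UMIs per gene, or no minimum, could not change the ratio of a gene. The 251 and 292 values that stayed in these settings were thus mostly fixed in advance. Where a gene had 0 UMIs in 1 group, its interval was open on 1 side, so a move that way was not counted. A reversal was a change of sign in a ratio or median that was at least 2-fold as reported. Smaller ones could change sign without being counted, as H2-Eb1 did (-0.77 as reported, highest 3.52). Genes at least 2-fold higher ranged over 725 to 1586 and genes at least 2-fold lower over 414 to 2248, with 725 and 414 at 50 UMIs per gene, 2248 lower genes with no minimum, and 418 lower genes in thinned cells. Limiting mitochondrial UMIs to 5% left 139 cells. The capillary median ranged over 2.20 to 3.27, the last against other endothelium with Cytl1, and the fatty acid median over 0.85 to 2.71. The large-vessel median was -3.28 at 5% mitochondrial UMIs, -3.33 without the Cytl1 limit, -4.57 at 4 UMIs of the capillary pair, -4.62 as a mean over cells, -4.77 in thinned cells, -4.385 against other endothelium with Cytl1 and -4.61 without lymphatic cells.

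Reversals so counted were as follows. With 2 of 7 endothelial genes the class II median was 1.90, Cd74 1.69, H2-Aa 2.65, H2-Ab1 3.36 and Lef1 -2.46. With 4 of 7 the class II median was 1.59, Acta2 1.20, Cd74 0.14, H2-Aa 1.77, H2-Ab1 1.41 and Pdgfrb 0.20. With 1 UMI of the capillary pair H2-Ab1 was 0.13. Without the highest doublet scores Acta2 was 1.15 and Tagln 0.28. As a mean over cells Itga2b was -0.80, Lyve1 -0.52, Mrc1 -0.88 and Stmn1 -0.53, and in thinned cells Lyve1 was -0.53 and Maf -0.50. Against other endothelium with Cytl1 the class II median was 1.25, Acta2 0.87, Adm 1.80, Cd74 0.48, Fcer1g 0.68, H2-Aa 1.43, H2-Ab1 1.07 and Slc2a1 1.24. Without lymphatic cells Lyve1 was -4.89. Without haemoglobin-rich cells the erythroid median was -0.28, Hba-a1 -0.63 and Hba-a2 -1.06.

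No paired analysis was possible because each group is 1 library and no test was made, which also leaves no replicate to leave out. Alternatives planned for comparisons with sunitinib and vehicle cells were not run, since those libraries held 0 and 1 cells of the rule. Depth limits rare transcripts: of a gene at 0 UMIs in the 300 cells, levels under the floor of 3 counts were not detectable.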
